A study of Mus musculus with 12 samples.

Results

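Interferon-gamma is read by cells through a receptor of 2 chains, Ifngr1 and Ifngr2, and through genes that it induces, of which Irf1, Irf8, Nos2, Gbp5, Gbp2b, Ido1 and Socs1 were listed here together with the receptor. The 9 genes were chosen as named members of this pathway, and the interferon-induced chemokines were left out of the list. Of the 9, 6 were found among the 561 gene probes of the skin measurements, and all 6 were among the 451 genes that were tested. The levels of Gbp5, Gbp2b and Ido1 were not analysed here.

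Interferon-gamma is made mainly by T cells and natural killer cells. It binds Ifngr1, which then pairs with the signalling chain Ifngr2, and the kinases Jak1 and Jak2 bound to these chains start the signal. In the nucleus it acts at gamma-activated sites (GAS) in DNA and switches on Irf1 and other genes, after which IRF1 protein acts at interferon-stimulated response elements (ISRE) of a later set of genes. SOCS1 protein blocks the JAK kinases and so ends the signal. In skin, interferon-gamma acts on keratinocytes as well as on immune cells, and interferon-induced genes are a known feature of cutaneous lupus lesions.

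Among the measured members, the promoters of Irf1, Irf8 and Socs1 are shown because they hold the letters of such sites. Each is the stretch of 250 bases before the gene's start in RefSeq's GRCm38.p6, written 5′ to 3′ on the gene's own strand. Capitals mark matches to the GAS letters TTCNNNGAA, which read the same on both strands, or to the ISRE-like letters GAAA and again GAAA with any 2 bases between them, searched on both strands.
Irf1, chr11:53769764-53770013, plus strand: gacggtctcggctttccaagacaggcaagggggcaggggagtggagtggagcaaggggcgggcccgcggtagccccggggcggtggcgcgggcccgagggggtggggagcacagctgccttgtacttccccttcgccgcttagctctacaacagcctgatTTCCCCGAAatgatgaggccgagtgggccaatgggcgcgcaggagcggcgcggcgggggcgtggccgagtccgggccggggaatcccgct
Irf8, chr8:120736108-120736357, plus strand: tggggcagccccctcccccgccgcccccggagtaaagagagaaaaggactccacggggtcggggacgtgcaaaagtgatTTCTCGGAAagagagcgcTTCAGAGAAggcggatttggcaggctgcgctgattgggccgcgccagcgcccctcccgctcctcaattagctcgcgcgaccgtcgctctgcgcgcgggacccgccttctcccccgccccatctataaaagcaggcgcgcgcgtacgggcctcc
Socs1, chr16:10785537-10785786, minus strand: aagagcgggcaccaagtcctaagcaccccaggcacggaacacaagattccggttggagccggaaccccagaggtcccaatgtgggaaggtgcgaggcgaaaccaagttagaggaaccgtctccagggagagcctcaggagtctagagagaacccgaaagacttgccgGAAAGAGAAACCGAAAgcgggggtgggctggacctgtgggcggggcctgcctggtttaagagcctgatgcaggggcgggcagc
The Irf1 promoter held 1 GAS match, TTCCCCGAA, which begins 90 bases before the start. Irf8 held 2, TTCTCGGAA at 171 bases and TTCAGAGAA at 153 bases before the start. Socs1 held 2 ISRE-like matches, GAAAGAGAAA at 83 bases and GAAACCGAAA at 77 bases before the start, which overlap by their shared letters. No match was found in this window for Ifngr1, Ifngr2 or the other listed starts of Irf1 and Irf8. Nos2 had no promoter among those searched. The promoters of Gbp5 and Gbp2b also held matches and are not shown. Among all 32851 promoters of the same length in the table, 7.02% held the GAS letters and 2.98% the ISRE-like letters. The matches describe letters only.

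The 12 libraries came from frozen skin of female mice, 4 littermates, 4 mice with a model of cutaneous lupus erythematosus (CLE) and 4 such mice with fewer Merkel cells (Merkel het CLE), measured on a NanoString immunology panel that counts barcoded probes without amplification. Every mouse, littermates included, had received OT2 CD4 T cells (specific for an ovalbumin peptide) skewed toward the Th2 state, and skin was taken when disease first appeared. The comparisons ask how inflamed skin differs from skin of mice that received the same T cells, and how the loss of Merkel cells, the touch receptors of the epidermis, bears on it. Ages are not given in the labels.

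CLE mice carried rtTA and K5TGO, the transgenes with which the skin makes the autoantigen, were TLR9ko/ko, came from the parental strain and kept their Merkel cells. Merkel het CLE mice carried both transgenes with Atoh1flox/wt and K14Cre, a Cre driven by the keratin 14 promoter of basal keratinocytes, so that a transcription factor needed by Merkel cells is deleted from 1 allele in the epidermis. Of these, mice 1 and 2 were labelled TLR9wt/wt and mice 3 and 4 TLR9ko/ko. Littermates lacked rtTA or K5TGO or both. Littermates 1 and 2 were K14Cre- and had Atoh1flox/flox and Atoh1wt/wt respectively, while littermates 3 and 4 were K14Cre+ with Atoh1flox/wt and Atoh1flox/flox, and the labels describe a partial and a full loss of Merkel cells in them. Littermate 1 was TLR9ko/wt and the other littermates TLR9ko/ko. The skin disease score was 0 in all littermates, 2.5, 1, 1 and 3 in CLE mice 1 to 4, and for the Merkel het CLE mice it was 3, 2, 2 and 2.5 in the same order. The groups thus differ in strain and alleles as well as in disease, and these cannot be told apart where they run with the group.

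Recovered gene counts ran from 99297 in littermate 2 and 134994 in CLE mouse 1, the libraries of lowest count, to 682046 in Merkel het CLE mouse 1, and 295 to 473 probes per library lay above background. Values are in units of the deposited signal, and a gene's level is set only against its own level in other mice. Itga6, the 1 keratinocyte marker in the table, was above background in all 12 libraries. Merkel cell markers were not analysed here, so their loss was not checked. In bulk skin, fewer cells of a type and less RNA per cell cannot be told apart.

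The receptor gave the only member that passed the test. Ifngr2, the signalling chain, was lower in Merkel het CLE skin than in littermate skin and had a similar but uncalled difference in CLE skin. Ifngr1, the ligand-binding chain, showed no difference past the test in any comparison. Ifngr2 read 858, 784, 604 and 657 units in littermates 1 to 4. In CLE mice 1 to 4 it read 361, 341, 612 and 469 units, and in the Merkel het CLE mice 409, 506, 350 and 301 units. All 4 Merkel het CLE mice lay below all 4 littermates, whereas CLE mouse 3 lay just above the lowest littermate. The group means were 726 ± 116, 446 ± 124 and 391 ± 88.3 units (SD, n = 4) for littermate, CLE and Merkel het CLE skin, and the last 2 in this order did not differ beyond their spread.

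Against littermates, Ifngr2 was 1.87-fold lower in Merkel het CLE skin, a log2 difference of -0.90 ± 0.25 (SE; 95% interval -1.44 to -0.37; adjusted p = 0.0414, limma with Benjamini-Hochberg adjustment over 451 genes). It was the 1 of 6 members called in this comparison, in which 11.8% of all tested genes were called and 6.87% were called lower. The 2 groups did not overlap for 30.6% of all tested genes, so the separation itself is common in this comparison. Against littermates, CLE skin differed by -0.73 ± 0.25 for Ifngr2 (95% interval -1.26 to -0.19; limma adjusted p = 0.13). Between Merkel het CLE and CLE skin the difference was -0.17 ± 0.25, with an interval of -0.71 to 0.36 and an adjusted p of 0.743, and this also tests whether the diseased groups differ in their distance from littermates. Littermates 1 and 2 and Merkel het CLE mice 1 and 2 share a title number, 23, whose meaning the labels do not give, and within it Ifngr2 read 858 and 784 against 409 and 506 units. Within littermates the lower 2 values were those of the K14Cre+ mice, and within Merkel het CLE mice the lower 2 were those of the TLR9ko/ko mice. The call was lost without K14Cre+ littermates (-1.09, adjusted p = 0.156), with TLR9 ko/ko libraries alone (-1.06, adjusted p = 0.213), and without any one of littermates 1 to 4 or Merkel het CLE mice 1, 3 or 4. Over all 12 leave-one-out fits, 5 of which kept the call, the difference ran from -1.03 to -0.78 and the adjusted p from 0.0163 to 0.119.

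**Figure D1:**
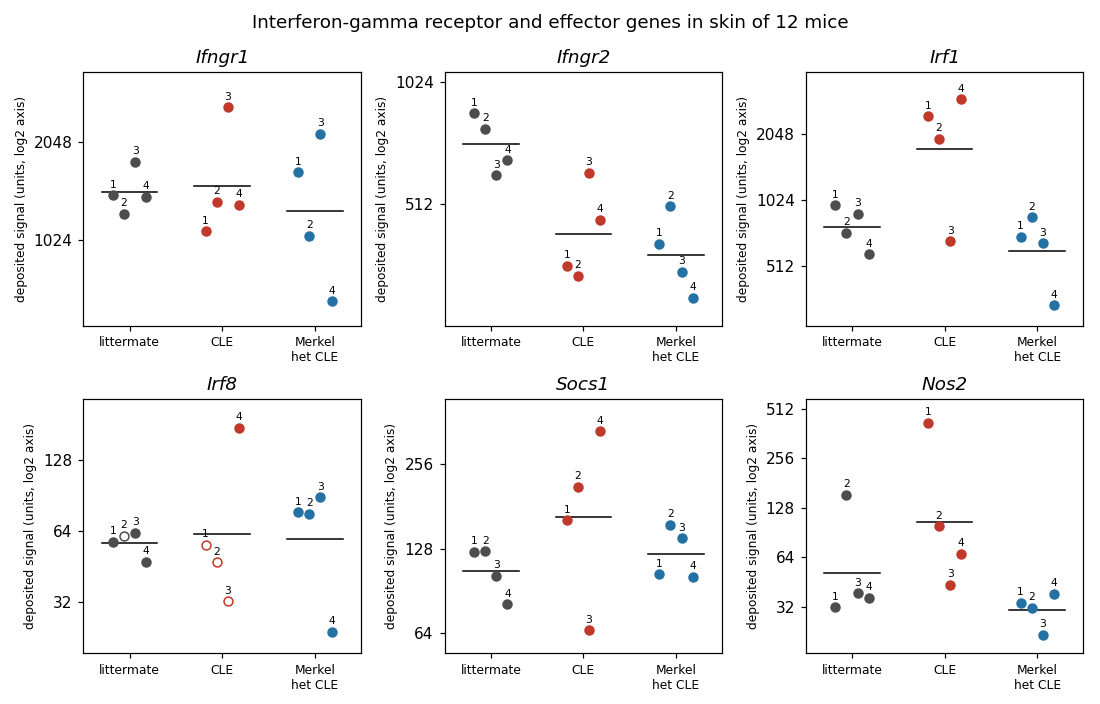
Level of each of the 6 measured members in units of the deposited signal (log axis) in littermate, CLE and Merkel het CLE skin, with 1 point per mouse, digits for the mouse number, open circles for values not above background and a black line for the geometric mean. For Irf1, 3 CLE mice sit between 1950 and 2946 units while CLE mouse 3 sits at 663 units, and for Ifngr2 every Merkel het CLE mouse sits below every littermate.

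Ifngr1 read 1406, 1233, 1786 and 1393 units in littermates, 1090, 1343, 2620 and 1315 units in CLE mice, and 1656, 1055, 2177 and 666 units in Merkel het CLE mice. The groups overlapped widely, and mouse 3 of each group was its highest. The log2 difference from littermates was 0.06 ± 0.36 in CLE skin (95% interval -0.73 to 0.85) and -0.19 ± 0.36 in Merkel het CLE skin, with limma adjusted p-values of 0.934 and 0.751. The intervals leave room for a change of either sign.

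Since both chains were measured in the same lane, their log2 ratio is free of the lane factor; it was computed after the data were seen. The log2 ratio of Ifngr1 to Ifngr2 probe signal was 0.71, 0.65, 1.57 and 1.08 in littermates, 1.59, 1.98, 2.1 and 1.49 in CLE mice, and 2.02, 1.06, 2.64 and 1.15 in Merkel het CLE mice. Only littermate 3 overlapped the CLE mice, lying above CLE mouse 4. Mean log2 ratios were 1.00 ± 0.42, 1.79 ± 0.30 and 1.72 ± 0.75 (SD, n = 4). The CLE difference of 0.79 from littermates had an exact two-sided permutation p of 0.0571, the Merkel het CLE difference of 0.71 an exact p of 0.2, and the difference between the diseased groups of -0.07 an exact p of 0.943. Adjusted over the 3 comparisons these became 0.171, 0.3 and 0.943 (Benjamini-Hochberg over exact p-values), and the smallest exact p that 4 against 4 mice allow is 0.0286. Because probes differ in efficiency, the ratio shows unequal change of the chains between mice, not which is more abundant.

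The ligand itself was at the limit of the measurement. Ifng read 9.11 to 44.5 units in littermates, 9.78 to 61.2 units in CLE mice and 6.44 to 14.6 units in Merkel het CLE mice, and was not above background in any of the 12 libraries. The highest values of the first 2 groups belonged to the low-count libraries, littermate 2 and CLE mouse 1, where 1 count is worth the most units. A difference in ligand mRNA was therefore not detectable at this depth.

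Irf1, a transcription factor that interferon-gamma induces early, was high in 3 of 4 CLE mice. It read 968, 724, 887 and 579 units in littermates and 2469, 1950, 663 and 2946 units in CLE mice. Merkel het CLE mice read 697, 852, 648 and 337 units. CLE mice 1, 2 and 4 lay above all 8 other mice, whereas CLE mouse 3 lay within the littermate range. Of the Merkel het CLE mice, 3 lay within the littermate range and mouse 4 below it. The means were 2007 ± 984 units in CLE, 789 ± 173 units in littermate and 633 ± 216 units in Merkel het CLE skin (SD, n = 4), and the 2 lower groups did not differ beyond their spread.

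The log2 difference in Irf1 between CLE and littermate skin was 1.18 ± 0.43, or 2.26-fold (95% interval 0.23 to 2.12; limma adjusted p = 0.13). Between Merkel het CLE and CLE skin it was -1.54 ± 0.43, or 2.91-fold lower (95% interval -2.49 to -0.60; adjusted p = 0.0995), the 18th smallest p of 451 genes. Neither passed the threshold with all 12 libraries. Without CLE mouse 3, the low one, both did, at 1.64 (limma adjusted p = 0.00676) and -2.01 (adjusted p = 0.00515), and removing the lowest value of a group raises its mean by construction. The CLE difference from littermates was 0.70 with median centring and 0.75 with quantile normalization (adjusted p = 0.199 and 0.197), and 0.93 without CLE mouse 4, the highest (adjusted p = 0.229). CLE mouse 3 had a disease score of 1, as did CLE mouse 2, whose Irf1 value was high. Merkel het CLE skin differed from littermate skin by -0.37 ± 0.43 (95% interval -1.31 to 0.58; adjusted p = 0.58).

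Summed marker genes of infiltrating cells differed in how CLE mouse 3 stood. Its macrophage and monocyte sum (11 of 13 genes in the table) was 2215 units, the lowest of a CLE range that reached 18966, against 2022 to 3726 in littermates and 2951 to 11982 in Merkel het CLE mice. Its NK and cytotoxic sum (7 of 9 genes in the table) was 345 units, the lowest of a CLE range of 345 to 1076, against 258 to 570 and 179 to 396 in the other groups. For T cell markers (14 genes, 2 to 13 of them above background per library), CLE mice ranged from 772 in mouse 3 to 1429 in mouse 1, against 656 to 1059 and 412 to 710. In a step added after the data were seen, the mean negative control was taken off for each gene. CLE mice 1 to 4 then had T cell sums of 553, 887, 501 and 971 units. Littermates then had 359 to 673 units and Merkel het CLE mice 226 to 497 units. The gap between CLE mice 1 and 3 was thus mostly lane background. Mouse 3 stayed the lowest CLE mouse, within the littermate range, while CLE mice 2 and 4 lay above all mice of the other groups. After the same step the NK sums of CLE mice 1 to 4 were 496, 457, 209 and 998 units. The neutrophil sum (7 genes) was lowest in CLE mouse 4, at 1274 units against 1478 in mouse 3, and reached 236728 units in mouse 1. That highest sum was nearly all S100a8 and S100a9, at 139994 and 93820 units, and Camp and Ltf of this list were not tested, being below background. The B cell sum (9 genes) was 849 units in mouse 3, the second highest of the CLE mice. The part of these cells in the Irf1 values was not tested.

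**Figure D2:**
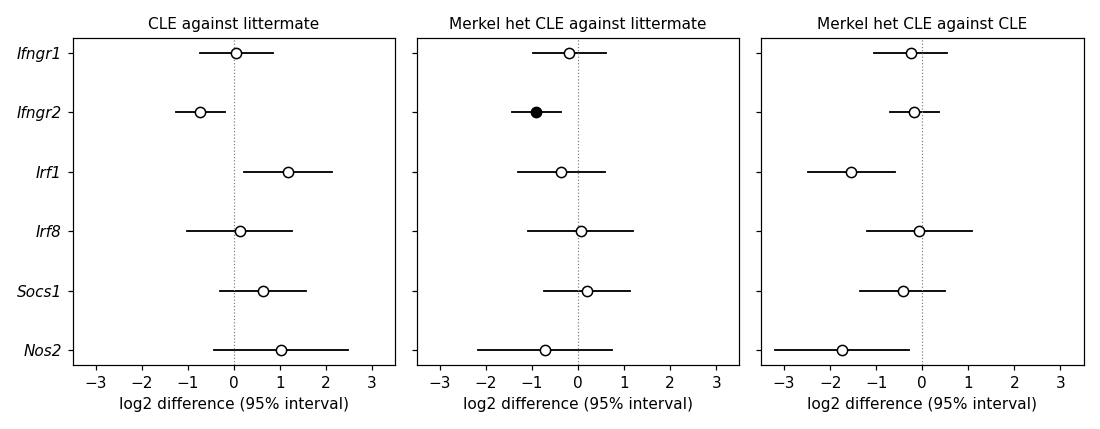
Log2 difference of each of the 6 members between groups, with 95% intervals from limma; filled points have an adjusted p under 0.05. The 1 filled point is Ifngr2 in Merkel het CLE against littermate skin at -0.90, and for Irf1 the interval of 0.23 to 2.12 in CLE against littermate skin and of -2.49 to -0.60 between the diseased groups both leave out 0 without passing the adjusted test.

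Socs1, the induced brake on JAK kinases, followed Irf1 in outline. It read 124, 125, 102 and 81.1 units in littermates, 161, 212, 65.6 and 334 units in CLE mice, and 104, 156, 139 and 102 units in Merkel het CLE mice. The same 3 CLE mice lay above all other mice, and CLE mouse 3 was the lowest of all 12. The difference between CLE and littermate skin was 0.63 ± 0.43 on the log2 scale (95% interval -0.30 to 1.56; limma adjusted p = 0.332), and without CLE mouse 3 it was 1.07 with an adjusted p of 0.0272. It was 0.16 with median centring, 0.11 with quantile normalization and 0.30 without CLE mouse 4, with limma adjusted p-values of 0.83, 0.877 and 0.612. For Socs1 in Merkel het CLE skin the difference was 0.20 ± 0.43 from littermates and -0.43 ± 0.43 from CLE skin, with adjusted p-values of 0.776 and 0.627.

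Across the 12 libraries, which share lane depth and the groups, the log2 levels of Irf1 and Socs1 had a Pearson correlation of 0.79 with each other, and of 0.854 with group means taken out. The correlation is a description.

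Irf8, a transcription factor of dendritic cells, monocytes and B cells that interferon-gamma also induces, was close to background. It read 57.3, 60.6, 62.8 and 47.2 units in littermates, 55.6, 46.9, 32.1 and 174 units in CLE mice, and 76.6, 75.4, 88.5 and 23.8 units in Merkel het CLE mice. CLE mouse 4, with the highest disease score of its group, was the highest and Merkel het CLE mouse 4 the lowest of the 12. The values of littermate 2 and of CLE mice 1, 2 and 3 were not above background, so that CLE skin has 1 measured value. The log2 differences were 0.13 ± 0.52 for CLE and 0.06 ± 0.52 for Merkel het CLE skin against littermates, with limma adjusted p-values of 0.891 and 0.947, and the sign of both turned under other scalings. Among dendritic cell markers (5 of 9 genes in the table), the sum ran from 320 to 462 units in littermates, 289 to 598 in CLE mice and 149 to 491 in Merkel het CLE mice. Its part in the Irf8 values was not tested.

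Nos2, the inducible nitric oxide synthase of activated macrophages and keratinocytes, was the 1 member whose values did not overlap between the diseased groups. It read 31.6, 153.65, 38.5 and 36.3 units in littermates, 423, 98.8, 43.3 and 67.3 units in CLE mice, and 33.6, 31.3, 21.5 and 38.4 units in Merkel het CLE mice. The lowest CLE mouse lay above the highest Merkel het CLE mouse by a few units, at 43.3 against 38.4, and the 2 highest values of all belonged to the low-count libraries, CLE mouse 1 and littermate 2. These values rest on 25 to 76 recovered counts per library, all above background. The log2 difference between Merkel het CLE and CLE skin was -1.75 ± 0.67 (95% interval -3.21 to -0.30; limma adjusted p = 0.203), in a comparison where 7.98% of tested genes did not overlap. Against littermates the difference was 1.03 ± 0.67 in CLE skin and -0.73 ± 0.67 in Merkel het CLE skin, with adjusted p-values of 0.315 and 0.478.

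Read over the 6 members, the shares called were not far from those of all genes. Between CLE and littermate skin 0 of 6 passed the adjusted limma test, as did 0% of all tested genes, while 5 differences were positive, beside 72.5% of all genes. At an unadjusted p under 0.05 there were 2 members, Irf1 and Ifngr2, beside 26.6% of all genes. No member was without overlap between these groups, beside 11.1% of all genes. Between Merkel het CLE and littermate skin 1 member, Ifngr2, had an unadjusted p under 0.05, beside 29.7% of all genes, and 2 differences were positive, beside 51%. Between Merkel het CLE and CLE skin 0 members passed, beside 0.222% of all genes, and 2 had an unadjusted p under 0.05, Irf1 and Nos2, beside 19.3%. No member had a positive difference in that comparison, beside 31% of all tested genes, although Irf8 turned positive with median centring and both Irf8 and Ifngr2 with quantile normalization. Median log2 differences of the 6 members were 0.38 for CLE and -0.28 for Merkel het CLE skin against littermates and -0.34 between the diseased groups, beside 0.35, 0.01 and -0.26 for all 451 genes. Median centring moved the all-gene medians to -0.12, -0.33 and -0.12 and those of the members to -0.09, -0.62 and -0.20. The comparisons against littermates share the same 4 control mice.

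**Figure D3:**
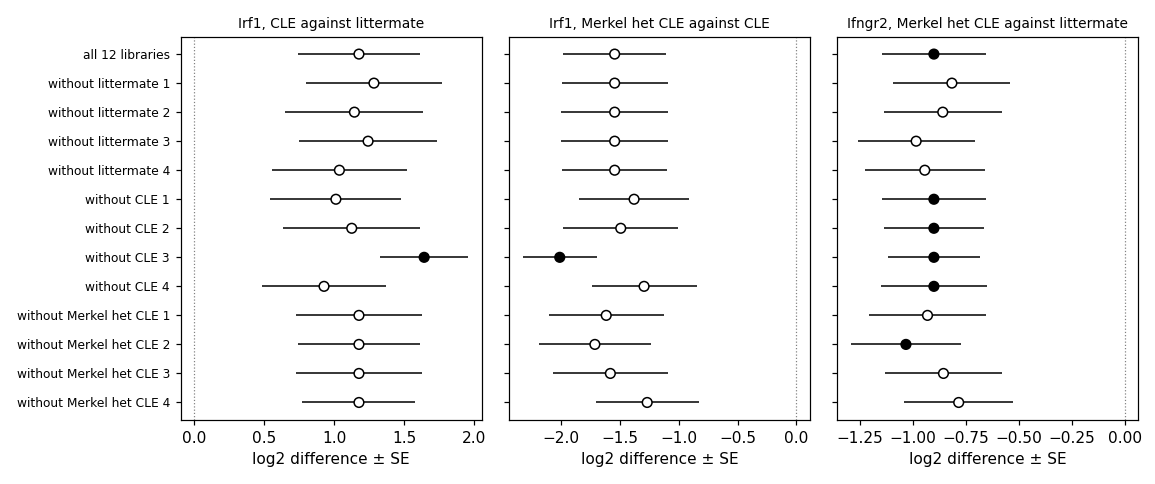
Log2 differences of members with each library left out in turn, with bars for the standard error and filled points for an adjusted p under 0.05. Leaving out CLE mouse 3 gives the largest Irf1 differences, 1.64 against littermates and -2.01 between the diseased groups, while the Ifngr2 difference of Merkel het CLE from littermate skin stays between -1.03 and -0.78.

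Other genes of the pathway were counted by role, with no test of a list. Of 12 genes for interferon-gamma and the cytokines that induce it, 7 were tested, and Ifng, Tbx21, Stat4 and Il12rb1 were below background. Between Merkel het CLE and littermate skin 3 of the 7 fell and none rose: Il12rb2, the inducible chain of the IL-12 receptor (-5.02 ± 0.71), Il18r1, a chain of the IL-18 receptor (-1.73 ± 0.43), and Il12a, a subunit of IL-12 (-1.54 ± 0.41), with limma adjusted p-values of 0.00443, 0.0295 and 0.0399. For Il12rb2, 1 of 4 Merkel het CLE libraries was above background, and for Il12a none was. Of all tested genes, 6.87% were called lower in Merkel het CLE against littermate skin. In each of the other comparisons between groups 0 of 7 passed, and 4 had an unadjusted p under 0.05. The shares of all tested genes at that p were 26.6% in CLE against littermate skin and 19.3% between the diseased groups. Il27, a cytokine subunit that favours Th1 differentiation, had differences of 1.51 ± 0.43 in CLE against littermate skin and -1.83 ± 0.43 between the diseased groups (limma adjusted p = 0.111 and 0.063). It was above background in 3 of 4 CLE, 1 of 4 littermate and 0 of 4 Merkel het CLE libraries. Il27 thus met the filter mainly through the group where it was high, and both differences are set against values mostly at background.

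Of the 8 genes of the JAK-STAT relay and its brakes, all tested, 0 passed the limma test in any comparison, and 4, 2 and 1 had an unadjusted p under 0.05 in CLE against littermate, Merkel het CLE against littermate and Merkel het CLE against CLE skin, where the shares of all tested genes were 26.6%, 29.7% and 19.3%. Socs3, the feedback brake best known downstream of IL-6 family cytokines, had the smallest unadjusted p in both comparisons with littermates. Its log2 differences were 1.86 ± 0.52 in CLE and 1.68 ± 0.52 in Merkel het CLE skin (limma adjusted p = 0.111 and 0.057). Jak1, the kinase bound to Ifngr1, differed by -0.50 ± 0.22 in Merkel het CLE skin from littermates (adjusted p = 0.142).

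Of 20 other interferon-gamma-induced genes, 17 were tested and 0 passed the limma test in any comparison, and at an unadjusted p under 0.05 there were 6, 2 and 8 in the same order, where 26.6%, 29.7% and 19.3% of all tested genes had one. Their median log2 difference was 0.64 in CLE and -0.14 in Merkel het CLE skin against littermates and -0.89 between the diseased groups, beside 0.35, 0.01 and -0.26 for all tested genes, and with median centring it was 0.17, -0.47 and -0.75. The chemokine gene Cxcl10 read 53.25 to 118.5 units in littermates and 2569, 2439, 131 and 3833 units in CLE mice 1 to 4. Cxcl9 read 1585, 1548, 74.0 and 6848 units in the same 4 CLE mice, so mouse 3 was the low one for both. In Merkel het CLE mice Cxcl10 read 112.5 to 302 units and Cxcl9 88.7 to 350 units, with 3 of 4 mice above every littermate for each, whereas Irf1 in that group lay within or below the littermate range. The Merkel het CLE differences from littermates were 1.26 ± 0.87 for Cxcl10 and 1.5 ± 1.05 for Cxcl9 (limma adjusted p = 0.344 and 0.354). Their CLE differences of 4.02 ± 0.87 and 3.98 ± 1.05 did not pass the limma test (adjusted p = 0.111 for both). Tap1, the peptide transporter for MHC class I, had the smallest p of this list between the diseased groups, at -1.40 ± 0.28 (adjusted p = 0.063), and differed by -0.85 ± 0.28 from littermates in Merkel het CLE skin (adjusted p = 0.0635).

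The type I interferon list, whose genes overlap with those that interferon-gamma induces, had 12 of 14 genes tested and 0 that passed the limma test, with 5, 1 and 2 at an unadjusted p under 0.05, to be read against the same shares of all genes. Its medians were 1.00 in CLE and 0.39 in Merkel het CLE skin against littermates and -0.37 between the diseased groups, and with median centring they were 0.53, 0.05 and -0.23. Irgm1, an interferon-induced GTPase, differed by 1.36 ± 0.47 in CLE against littermate skin and by -1.76 ± 0.47 between the diseased groups (limma adjusted p = 0.13 and 0.0807). Among the other IRF genes, 4 of 7 were tested. Irf4, an IRF of activated lymphocytes and of dendritic cells, fell by 2.04 ± 0.30 on the log2 scale in Merkel het CLE against littermate skin (adjusted p = 0.00443).

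Each member's closest companions were named by the Pearson correlation of log2 levels over the 12 libraries, as a description, since the libraries share depth, groups and infiltrate. Irf1 was closest to Psmb10, an immunoproteasome subunit (r = 0.956), Il2rb, a chain of the IL-2 and IL-15 receptors (0.947), and Cd274, which encodes PD-L1 (0.943). Socs1 was closest to Irf7 (0.896), Cxcl9 (0.892) and Psmb10 (0.891). Irf8 was closest to the MHC class II genes H2-Aa (0.932) and Cd74 (0.907) and to Ly86 (0.874), a gene of antigen-presenting cells. Ifngr2 was closest to Tgfb2, a TGF-beta ligand (0.936) and Cradd, a death-domain adaptor (0.925). Ifngr1 had weaker companions, with Tgfbi at 0.796, Fas at 0.77 and Il6st at 0.748. The companions of Nos2 were Cd27 (0.944), Eomes (0.9) and Icam5 (0.899), which were above background in only 6, 5 and 6 of the 12 libraries, so that these values rest in part on background in the low-count libraries. The 2 receptor chains had a correlation of 0.294 with each other.

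The skin disease score was set against the members in the 8 diseased mice, in a fit that also held the group. No member passed the limma test, as did 0% of all genes, and none had an unadjusted p under 0.05, beside 4.43% of all genes, and 4 slopes were positive, beside 62.7%. The largest slopes were those of Irf8 at 0.63 ± 0.40 and Irf1 at 0.53 ± 0.33 log2 units per unit of score (limma adjusted p = 0.718 for both). The receptor chains had slopes of -0.29 ± 0.31 for Ifngr1 and -0.07 ± 0.23 for Ifngr2. With each diseased library left out in turn the slopes ran from 0.11 to 0.77 for Irf8, lowest without CLE mouse 4, from 0.14 to 0.78 for Irf1, lowest without CLE mouse 3, and from 0.10 to 1.36 for Nos2, so their order is not settled. Without the group in the fit the Irf1 slope was 0.11. The Irf8 slope rests in part on the 3 CLE values not above background. Within the groups, Irf1 had a slope of 0.70 in CLE mice and -0.29 in Merkel het CLE mice, each from 4 mice, and Irf1 in CLE mice 2 and 3 differed although both had a score of 1.

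**Figure D4:**
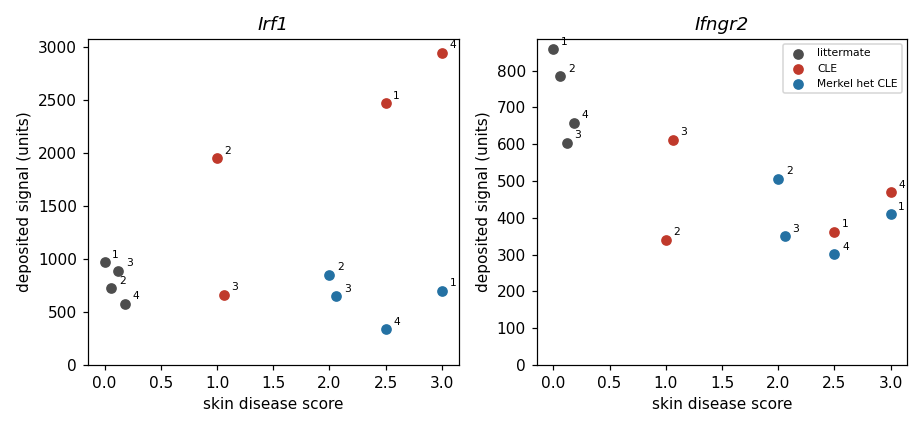
Irf1 and Ifngr2 levels in units (linear axis) against the skin disease score of the littermate, CLE and Merkel het CLE mice. Points of equal score within a group are shifted slightly sideways. At a score of 1, the 2 CLE mice have Irf1 at 1950 and 663 units. The Merkel het CLE mice, which scored 2 to 3, all lie below 3 of the 4 CLE mice in Irf1.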

How the data were processed

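Among the deposited probes, 561 were for genes and 14 were controls. Each gene's deposited signal is its barcode count times a factor of the lane, since 100% of gene values in every lane lay within 0.02 units of a multiple of 1 step; the sources used here do not say how the authors set it. The recovered counts served for depth and background. RefSeq symbols were matched for 549 probes. Tested genes had to exceed, in 4 or more of the 12 libraries, the mean plus 2 SD of 8 negative controls, which left 451 (98 lay below and 12 were reference genes).

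Log2(value + 1) was tested with limma 3.58.1 in R 4.3.3: all 12 libraries entered a single model of the 3 groups with a trended prior variance, and Benjamini-Hochberg p-values over 451 genes were read at 0.05. A fold on this scale understates changes of low genes. The score trend used the 8 diseased mice. Groups, genotypes and scores follow the sample labels, which differ from the series description (TLR9 absent in every group, and Merkel cells lost); replicate numbers are in accession order and pair no mice. Labels describe single mice, so p-values cover the spread between mice.

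From each list, up to 3 called genes of largest change, or the 2 of smallest p where none was called, could be named, and those nearest the pathway are described; Ifng, Cxcl9 and Cxcl10 were always taken. A few genes that these rules name are not reported here. The members and lists were chosen with earlier results of these data known. The fit was also run on simulated counts with changes larger than any difference of a member. Its outcome is not reported here, and it cannot speak for changes of the members' size. Exact permutation tests and figures used Python 3.11.15, scipy 1.17.1 and matplotlib 3.10.9.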

Additional observations from a re-analysis of the deposited data

Results flagged for a closer look

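Among the 18 sets of 4 mice formed by 6 members and 3 groups, 2 held a mouse far from the other 3, by a gap above Dixon's 95% critical value; chance gives about 1 such set in 20. Irf8 in Merkel het CLE mouse 4 was 23.8 units, low against 75.4 to 88.5 units in the other 3 mice of its group. Nos2 in littermate 2 was 153.65 units, high against 31.6 to 38.5 units in the other 3 littermates, in the library of lowest count.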

How the results depend on the processing

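Over 26 alternatives, Ifngr2 in Merkel het CLE against littermate skin stayed negative, from -1.24 to -0.78, and lost its call under 11, with adjusted p-values of 0.0053 to 0.213. Members called there numbered 0 with no filter, with TLR9 ko/ko libraries alone, without K14Cre+ littermates and without the 2 libraries of lowest count, and 0 to 1 when each library was left out. In CLE against littermate skin they numbered 2 with array weights, when 108 genes in all were called, and 0 to 3 over leave-one-out fits, the 3 being without CLE mouse 3, when 138 genes were called; between the diseased groups they numbered 0 to 1, the 1 being without CLE mouse 3, when 28 genes were called. The causes were not tested. Signs turned for small differences. For Irf8, CLE against littermate skin gave -0.35 with median centring, -0.55 with quantile normalization and -1.06 with background subtracted (leave-one-out -0.36 to 0.44). Irf8 in Merkel het CLE against littermate skin gave -0.064 on reference genes, -0.27 with median centring, -0.19 with quantile normalization and -0.29 with TLR9 ko/ko libraries alone (leave-one-out -0.13 to 0.49). Irf8 between the diseased groups gave 0.071, 0.36 and 1.59 with median centring, quantile normalization and background subtracted, and 0.21 with array weights (leave-one-out -0.37 to 0.43). For Ifngr1, CLE against littermate skin gave -0.031 on reference genes, -0.42 with median centring, -0.31 with quantile normalization and -0.12 with array weights (leave-one-out -0.21 to 0.21); its leave-one-out range was -0.45 to 0.12 in Merkel het CLE against littermate skin and -0.51 to 0.059 between the diseased groups, where array weights gave 0.094. Socs1 in Merkel het CLE against littermate skin gave -0.13, -0.10 and -0.023 with median centring, quantile normalization and without K14Cre+ littermates, and Ifngr2 between the diseased groups gave 0.030 with quantile normalization. Leave-one-out ranges also crossed 0 for the Ifngr2 score slope (-0.23 to 0.11) and the receptor ratio between the diseased groups (-0.38 to 0.14). No paired analysis was possible because the replicate numbers are in accession order; with a random block for title number (correlation 0.213) Ifngr2 in Merkel het CLE against littermate skin was -0.91 (limma adjusted p = 0.0332), and the members called stayed at 0, 1 and 0 in the 3 comparisons. A planned count-based test was not run.

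Each group had 4 mice, and littermate 2 and CLE mouse 1 had background thresholds of 116 and 106 units, against 53.2 or less elsewhere, and Irf8 lay below them in both.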
